A study of Mus musculus with 2 samples.

Results

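Of the 2977 regions called in chromatin immunoprecipitation with sequencing (ChIP-seq) of mouse muscle stem cells, 326 lay at genes for long noncoding RNAs (lncRNAs). They were chosen by position. The summit, the base with the most fragments, had to fall on chromosomes 1 to 19, inside or within 1000 bp of an lncRNA gene of the RefSeq GRCm38 table, and more than 1000 bp from both ends of every protein-coding gene. The chosen peaks were 11% of the 2958 autosomal peaks (Wilson 95% interval 9.94 to 12.2%) and 15.6% (14.1 to 17.2%) of the 2095 that lay more than 1000 bp from protein-coding gene ends. No measured value entered the choice. The rule on gene ends removed 150 of the 476 autosomal peaks at lncRNA genes.

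The cells were muscle stem cells sorted by flow cytometry from untreated C57BL/6 mice of the genotype Pax7-YFP KI, in which Pax7 carries a knock-in of the yellow fluorescent protein, YFP. One group was ChIP DNA from an antibody to GFP, the green fluorescent protein, of a kind that also binds YFP, with 1 library of 10622111 tags after filtering. The other group was input DNA from the same genotype, without antibody, with 1 library of 20429667 tags. Both groups carried the knock-in, and ChIP from cells without it was not analysed here. The labels give neither the structure of the knock-in allele nor the age, sex or number of the mice. The series asks for target genes of PAX7. With 1 library a group there was no replicate, so no difference was tested, and each interval covers counting error only. Fragments without molecular identifiers are not independent molecules. The peak list carries no expression values against which the labelled cell type could be checked.

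PAX7 is the transcription factor of satellite cells, the resident stem cells of skeletal muscle. It holds a paired domain and a homeodomain, which contact different DNA letters, and it is known to bind many sites far from promoters. Long noncoding RNAs are transcripts without a long reading frame. Some act in nuclear bodies or on neighbouring genes, some are hosts of microRNAs, and for many predicted ones no function is known. A peak at an lncRNA gene can therefore belong to that gene, to a neighbouring gene or to neither, and the peak list does not separate these cases.

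The promoter sequences of the lncRNA genes are shown first, since they are the stretches where a peak and an lncRNA start coincide and where letters could be read. RefSeq windows of GRCm38.p6, from 250 bases before to 50 after an annotated start, held at least 100 bases of a peak for 24 lncRNA genes at 24 peaks. Gm36199 had 2 such windows that largely overlap, and the one with more bases in the peak was kept. The summit itself was inside 18 of the 24 windows. Both strands were searched for the homeodomain dimer sites (TAAT, then 2 or 3 free letters, then ATTA), the single homeodomain core TAAT that both contain, the paired domain core GTCACGC, the E-box CAGCTG bound by myogenic helix-loop-helix factors, and the AP-1 site TGANTCA bound by JUN and FOS proteins. Capitals below mark these letters, on either strand, and each window runs 5′ to 3′ on the strand of its gene. The whole window was searched, so a marked motif can lie outside the peak. The windows shown are the 4 with the strongest peaks, that of Cistr, an lncRNA gene known from cartilage, and the window with the paired domain core. Gm30604 lay at chr5:118380869-118381168 (minus strand), Gm40345 at chr5:135689002-135689301 (minus strand), and Zfp783 at chr6:47942925-47943224 (plus strand). C130083M11Rik lay at chr5:52216384-52216683 (minus strand), Cistr at chr15:102746860-102747159 (minus strand), and LOC115490137 at chr5:124175151-124175450 (plus strand).
Gm30604: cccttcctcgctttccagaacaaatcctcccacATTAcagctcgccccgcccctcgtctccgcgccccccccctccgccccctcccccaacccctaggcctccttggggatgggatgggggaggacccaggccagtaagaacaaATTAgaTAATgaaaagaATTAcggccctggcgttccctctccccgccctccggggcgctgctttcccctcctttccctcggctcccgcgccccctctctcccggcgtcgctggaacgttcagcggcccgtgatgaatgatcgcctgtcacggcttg
Gm40345: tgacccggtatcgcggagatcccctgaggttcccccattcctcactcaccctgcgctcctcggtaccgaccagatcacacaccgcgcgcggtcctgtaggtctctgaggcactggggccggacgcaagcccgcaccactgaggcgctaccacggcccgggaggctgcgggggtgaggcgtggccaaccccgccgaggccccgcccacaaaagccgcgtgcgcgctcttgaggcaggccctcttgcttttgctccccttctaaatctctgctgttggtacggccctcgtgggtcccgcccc
Zfp783: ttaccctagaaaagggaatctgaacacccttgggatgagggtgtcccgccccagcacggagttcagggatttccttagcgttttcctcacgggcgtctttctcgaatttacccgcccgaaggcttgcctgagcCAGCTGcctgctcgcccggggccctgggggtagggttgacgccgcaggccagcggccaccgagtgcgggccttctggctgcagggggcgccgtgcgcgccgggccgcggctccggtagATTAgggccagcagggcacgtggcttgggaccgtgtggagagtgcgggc
C130083M11Rik: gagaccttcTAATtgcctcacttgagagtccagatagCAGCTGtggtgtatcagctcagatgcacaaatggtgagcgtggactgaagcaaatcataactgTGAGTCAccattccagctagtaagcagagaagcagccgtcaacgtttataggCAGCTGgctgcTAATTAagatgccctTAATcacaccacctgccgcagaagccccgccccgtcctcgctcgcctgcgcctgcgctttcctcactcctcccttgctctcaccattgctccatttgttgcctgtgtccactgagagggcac
Cistr: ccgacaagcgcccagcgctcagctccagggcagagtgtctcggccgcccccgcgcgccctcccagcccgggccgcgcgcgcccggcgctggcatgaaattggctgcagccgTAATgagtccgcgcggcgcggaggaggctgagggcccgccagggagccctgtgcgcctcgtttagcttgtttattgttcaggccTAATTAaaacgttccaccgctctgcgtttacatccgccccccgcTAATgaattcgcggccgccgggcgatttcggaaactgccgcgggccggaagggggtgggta
LOC115490137: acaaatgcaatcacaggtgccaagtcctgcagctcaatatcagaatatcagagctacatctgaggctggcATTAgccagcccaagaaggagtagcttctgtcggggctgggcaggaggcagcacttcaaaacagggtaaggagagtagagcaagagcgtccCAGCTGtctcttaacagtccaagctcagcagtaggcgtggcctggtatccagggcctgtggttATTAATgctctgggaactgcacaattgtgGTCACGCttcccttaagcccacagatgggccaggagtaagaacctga

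The Gm30604 window held 200 bases of a peak with a fold enrichment of 14.2, with its summit 65 bp past the start. It carried 4 TAAT cores and none of the longer motifs. The fold enrichments here and below are the authors' ratio of ChIP pileup over local input background, each with 1 added. C130083M11Rik, with a fold of 9.31 and a summit 162 bp upstream of the start, had 4 TAAT cores, 2 E-boxes and 1 AP-1 site. Zfp783, which RefSeq lists as an lncRNA gene, had its summit 1 bp from the start at a fold of 9.61. Its window held 1 TAAT core and 1 E-box, and the E-box lay outside the peak. The Gm40345 window, at the same fold, held none of the letters searched. The Cistr window held 4 TAAT cores at a fold of 7.59 (exact Poisson 95% interval of the pileup 4.38 to 12.4), and its summit lay 113 bp upstream of the start. LOC115490137 was the 1 window of the 24 with GTCACGC, beside 3 TAAT cores and 1 E-box, at a fold of 7.35.

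Over the 24 windows, TAAT was present in 14 (58.3%, Wilson interval 38.8 to 75.5%), against 69.3% of 11310 lncRNA windows and 57.9% of all 31365 windows. CAGCTG was present in 8 (33.3%, 18 to 53.3%), against 17.6% and 16.3%, and TGANTCA in 5 (20.8%, 9.24 to 40.5%), against 9.25% and 7.85%. These shares describe few windows, and no test was made. They count motifs anywhere in the window, inside the peak or not. With both windows of Gm36199 counted, the lower bounds were 17.2% for CAGCTG and 11.5% for TGANTCA, so 1 window moved each bound across the share of lncRNA windows. In the background sets, windows of 1 gene can also overlap. GTCACGC stood in 4.17% against 1.07% and 2.15%, and neither dimer was found in any of the 24, while they occurred in 0.716% and 0.531% of lncRNA windows. Median GC was 56.2% in the 24 windows, 48.3% in the lncRNA windows and 53.0% in all, and its part in the motif shares was not tested. Both TAAT and CAGCTG stood in 6 of the 24, and 8 held none of the motifs.

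Among the 308 lncRNA genes with a peak, 6 contain microRNA hairpins, 17 in all. The share among all lncRNA genes was not counted, so the 6 are not a result about the peaks. Genes with a peak were also longer, with a median of 19.9 kb against 8.43 kb over all lncRNA genes. Mirg, an imprinted microRNA host, had 10 of them and Mir100hg, host of miR-100, let-7a-2 and miR-125b-1, had 3. Mature sequences from RefSeq are given for both hosts, with the seed (bases 2 to 8) in capitals, because they hold the most hairpins. The GGUUGCC seed is shared by miR-453 and miR-496a-5p, and the other sequences each had a seed of their own.
miR-453: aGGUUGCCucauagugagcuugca
miR-496a-5p: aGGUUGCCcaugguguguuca
miR-541-5p: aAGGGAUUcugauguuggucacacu
miR-410-3p: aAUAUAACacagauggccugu
miR-100-5p: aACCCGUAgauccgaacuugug
miR-125b-5p: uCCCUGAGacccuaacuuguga
The Mirg peak at chr12:109749815-109750073, with 13 fragments at the summit and a fold of 7.08 (4.01 to 11.8), was 461 bp beyond the gene. It lay 1.96 kb from Mir3072, 6.12 kb from Mir410 and 7.42 kb from Mir541. The Mir100hg peak at chr9:41439861-41440048, with 12 fragments and a fold of 6.37 (3.53 to 10.8), lay farther from its hairpins, 91.4 kb from Mir100 and 141.9 kb from Mir125b-1.

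The strongest peak at an lncRNA gene was at Junos, transcribed from the strand opposite to Jun, which encodes an AP-1 subunit. It spanned chr4:95053155-95053420, had 34 fragments and a fold of 17.7 (12.4 to 24.5), and its summit lay 955 bp past the Junos start and 1050 bp from the nearer end of Jun. In the whole list 14 autosomal peaks had a higher fold. The next peak, at chr11:86867003-86867516, lay inside Gm33742 and Gm38942, overlapping predicted genes, and had 30 fragments and a fold of 15.7 (10.7 to 22.2). Its nearest protein-coding gene, Dhx40, a helicase gene, was 59.3 kb away. The 4 peaks of the next fold all had 29 fragments and 15.2-fold enrichment (10.3 to 21.6).

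Those 4 peaks were at Gm807 (chr13:99100384-99100758), 1700045H11Rik (chr4:150827425-150827691), Gm30544 (chr7:37320089-37320420) and 6030407O03Rik with Gm29183 (chr1:73758406-73758764). The 1700045H11Rik gene runs head to head with Errfi1, a feedback inhibitor of the EGF receptor, and the peak was 26.2 kb from the nearer Errfi1 end, beyond the far end of the lncRNA gene. The Gm30544 peak lay inside Zfp536, a zinc-finger gene, 707 bp upstream of the Gm30544 start. Gm30604, described above, stood at 27 fragments and 14.2 (9.51 to 20.4), and Gm51502 had the same values at chr7:136049641-136050008, 333 kb from Mki67, the proliferation marker gene. Gm11716 had 26 fragments and a fold of 13.6 (9.07 to 19.7) inside Pitpnc1, a lipid transfer protein gene, and Gm52384 had 25 and 12.7 (8.42 to 18.6) inside Sh3pxd2a, which encodes a scaffold of podosomes. These 12 lncRNA genes rest on 10 distinct peaks. Neighbours in this order do not differ beyond their intervals, since the interval of the first, 12.4 to 24.5, contains the fold of the last.

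**Figure D1:**
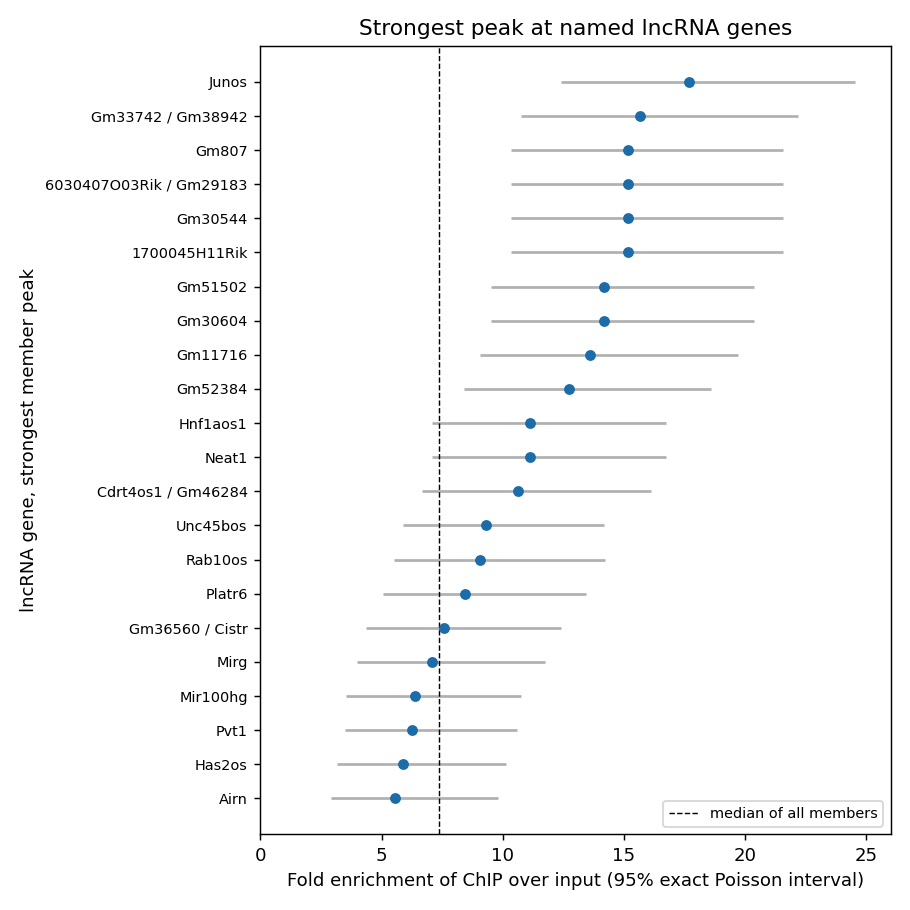
Fold enrichment (authors' ratio, horizontal axis) of the peaks at the named lncRNA genes. Points are the strongest peak of each gene in the 1 ChIP library, the dashed line is the median of the 326 peaks, 7.35, and bars are exact Poisson 95% intervals of the pileup with the background held fixed. Junos is highest at 17.7, and the intervals of neighbouring genes overlap.

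A few well-studied lncRNAs had a peak. Of all 12322 autosomal lncRNA genes, 308 had a peak under the rule (2.5%), 274 of them 1 peak and 34 more than 1. Of 18 autosomal lncRNA genes with a known role in muscle, Neat1 and Pvt1 had one (11.1%, 3.10 to 32.8%), and of 11 imprinted ones, Mirg and Airn (18.2%, 5.14 to 47.7%). Among 23 lncRNAs of nuclear bodies and chromatin there were 3 (13.0%, 4.54 to 32.1%), the same Neat1, Airn and Pvt1. Among 22 hosts of small nucleolar RNAs there were none, with a Wilson upper bound of 14.9%. These lists are short, and 1 gene can stand in several. Of the names listed, 21 of 35 matched the gene table for muscle, 14 of 17 for imprinting, 30 of 35 for nuclear bodies and chromatin, and 23 of 24 for small nucleolar RNA hosts, and those off the autosomes or not lncRNA genes were not counted.

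Neat1, the scaffold RNA of paraspeckles, had the highest fold of the listed lncRNAs. Its peak at chr19:5845406-5845846 had 21 fragments and a fold of 11.1 (7.08 to 16.7), and the summit lay 80 bp beyond the higher-coordinate end of the gene. Malat1, its neighbour and an abundant nuclear RNA, had no summit of its own: the nearest, 42.9 kb away, was the Neat1 peak. Pvt1, which extends downstream of the growth regulator gene Myc, had 2 peaks of 12 fragments each. They lay at chr15:62079580-62079860, 89.3 kb from Myc, with a fold of 5.08 (2.81 to 8.58), and at chr15:62222758-62222929, 232 kb from Myc, with a fold of 6.27 (3.47 to 10.6). Airn, the imprinted antisense RNA that silences Igf2r, had a peak of 10 fragments at chr17:12751417-12751596, inside Igf2r, with a fold of 5.56 (2.93 to 9.81). The Pvt1 and Airn values lay below the median of the members, 7.35, and their intervals contain it.

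Some listed lncRNAs had no peak under the rule, and their nearest summits were as follows. A summit with a fold of 7.08 was 170 bp from Snhg6, a small nucleolar RNA host. The rule left it out, since it was also 682 bp from an end of the protein-coding Mcmdc2. Rian, an imprinted lncRNA, had a summit of 11.1-fold at 16.5 kb. Meg3, another, had one of 9.10-fold at 35.2 kb, which was the member peak in Gm34081. For H19, the imprinted lncRNA of growth control, the nearest was at 291 kb, a member peak at Gm45889 and B130016D09Rik. Snhg6, Rian, Meg3, Malat1, H19 and the genes of the next paragraph were chosen after their values were seen.

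The named lncRNA genes given as examples in this paragraph had peaks with folds from 5.88 to 11.1. That range is not the range of all such genes. Cistr was given above. Has2os, antisense to the hyaluronan synthase gene Has2, had 11 fragments and a fold of 5.88 (3.18 to 10.1) at chr15:56692850-56693127, inside Has2. Unc45bos, opposite to the myosin chaperone gene Unc45b, had 20 fragments and a fold of 9.33 inside that gene. Rab10os, opposite to the vesicle transport gene Rab10, had a peak of 17 fragments and a fold of 9.07 at 332 bp upstream of its start. Hnf1aos1 reached 11.1-fold and Cdrt4os1 10.6-fold. By class of name, 4.43% of 271 lncRNA genes with another name had a peak, 2.87% of 209 named as the opposite strand of a gene, 2.23% of 1746 RIKEN clones and 2.49% of 10096 predicted genes. Predicted genes made up 251 of the 308.

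Several lncRNA genes held more than 1 peak. The most were 5, in the overlapping 6030407O03Rik and Gm29183 on chromosome 1, whose nearest protein-coding gene was Tns1, encoding a focal adhesion protein. From low to high coordinate the 5 peaks had 18, 29, 14, 17 and 13 fragments, with folds of 9.31, 15.2, 6.41, 9.10 and 5.98. Their distances from Tns1 ran from 155 kb down to 85.7 kb. Thus 1 peak stood high and the others lay on both sides of the member median. Another 4 genes had 3 peaks and 28 had 2.

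Gm20755 on chromosome 3 held 3 peaks of 8.09, 8.33 and 11.1-fold, the last at chr3:37924630-37925311 with 21 fragments. Platr6, an lncRNA known from pluripotent cells, held 3 peaks on chromosome 10 of 7.42, 6.47 and 8.46-fold, 43.1 to 37.5 kb from Sgk1, which encodes a serum- and glucocorticoid-regulated kinase. Gm40436 on chromosome 12 held 3 of 7.24, 4.87 and 7.06-fold, the first 132 bp past its start. Within each of these 3 genes the intervals of the peaks overlapped. The second peak of 1700045H11Rik reached 5.47-fold and that of Gm51502 8.33-fold. For 1700045H11Rik the interval of the weaker, 3.09 to 9.08, ended below that of the stronger.

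**Figure D2:**
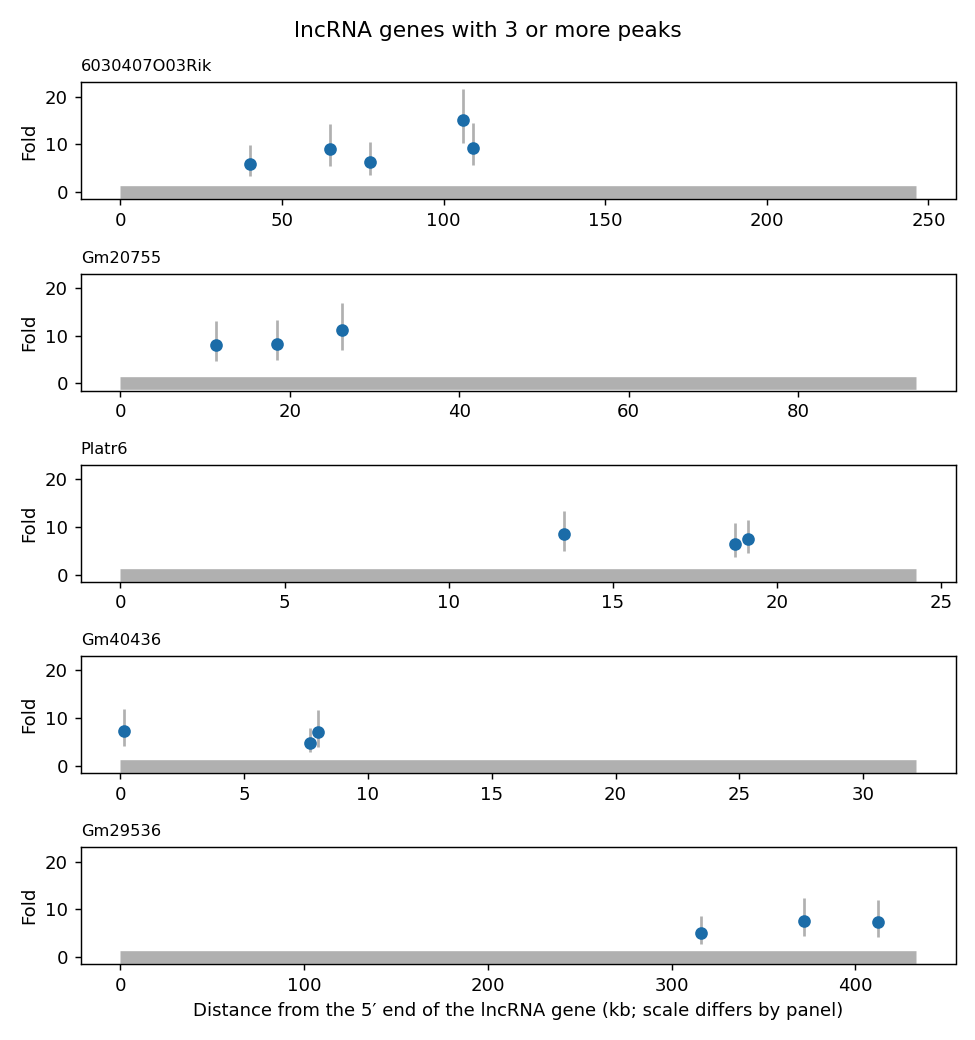
Fold enrichment (authors' ratio) of every peak in the lncRNA genes with 3 or more peaks, with exact Poisson 95% intervals. Genes with 2 peaks are not drawn. In the overlapping 6030407O03Rik and Gm29183, 1 of 5 peaks stands at 15.2 and the other 4 between 5.98 and 9.31.

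Long genes had peaks more often than short ones. The share of lncRNA genes with a peak was 1.10% of 363 under 1 kb, 0.746% of 2010 from 1 to 3 kb, 1.57% of 4512 from 3 to 10 kb, and 3.19% of 3668 from 10 to 30 kb. It reached 4.87% of 1500 from 30 to 100 kb and 10.4% (7.30 to 14.6%) of 269 from 100 kb. Median length was 19.9 kb with a peak and 8.43 kb over all. Per length the longest genes had fewer. Pairs of gene and peak per Mb were 4.03 under 1 kb (from 4 genes) and 1.86 from 1 to 3 kb. They were 2.08 from 3 to 10 kb, 1.82 from 10 to 30 kb, 1.12 from 30 to 100 kb and 0.794 from 100 kb. The rate thus changed little from 1 to 30 kb. Each gene counted here with its 1000 bp flanks. Among the 3 longest genes with a peak, Gm32647 spans 1284 kb and had 1 peak, of 5.08-fold, 1143 kb from Tenm4, a teneurin gene. Gm29536 spans 433 kb and had 3 peaks of 7.35, 7.59 and 5.08-fold, the nearest 4.58 kb from the potassium channel subunit gene Kcne4. 2610307P16Rik spans 425 kb and had 2 of 5.76 and 5.86-fold, 335 and 138 kb from the transcription factor gene Sox4.

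**Figure D3:**
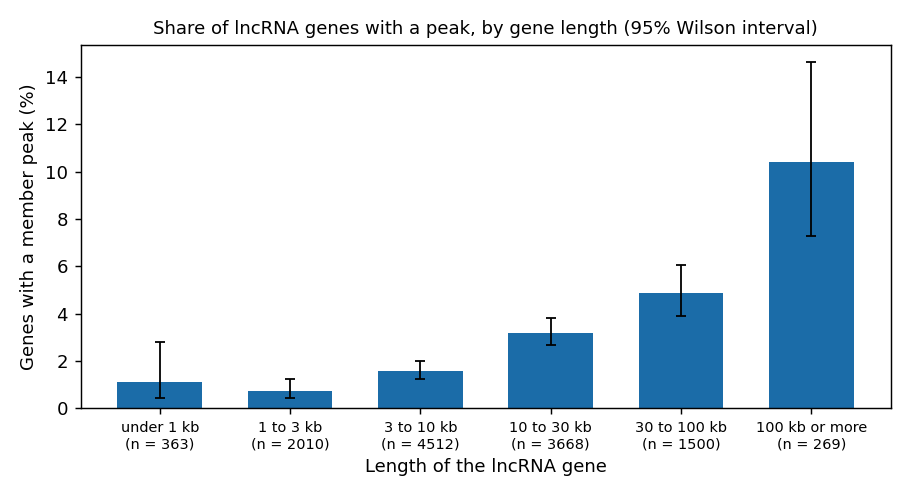
Share of autosomal lncRNA genes with a peak (%, vertical axis from 0) by length of the gene, with Wilson 95% intervals. The share was 1.10% under 1 kb and 10.4% at 100 kb or more.

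Within the lncRNA genes, peaks were densest around starts. The summit was inside an lncRNA gene for 276 peaks (84.7%, 80.3 to 88.2%) and in a flank for 50, and 26 peaks lay at 2 lncRNA genes. A start site could be matched for 253. Of these, 70 (27.7%) had the summit within 1000 bp of the start and 29 within 250 bp, while 123 (48.6%) were within 5000 bp. Upstream of the start lay 34 of the 70. The rule admits a summit farther upstream only where the matched start lies inside the gene span, which held for 11 peaks. Per Mb of sequence there were 3.94 peaks (exact Poisson interval 3.07 to 4.98) within 1000 bp of a start, 1.85 (1.26 to 2.63) within 1000 bp of the far end, and 1.06 (0.896 to 1.24) in the rest of the genes. The start interval does not overlap the others. Folds were no higher there: the median was 7.19 within 1000 bp of the start and 7.42 farther away.

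**Figure D4:**
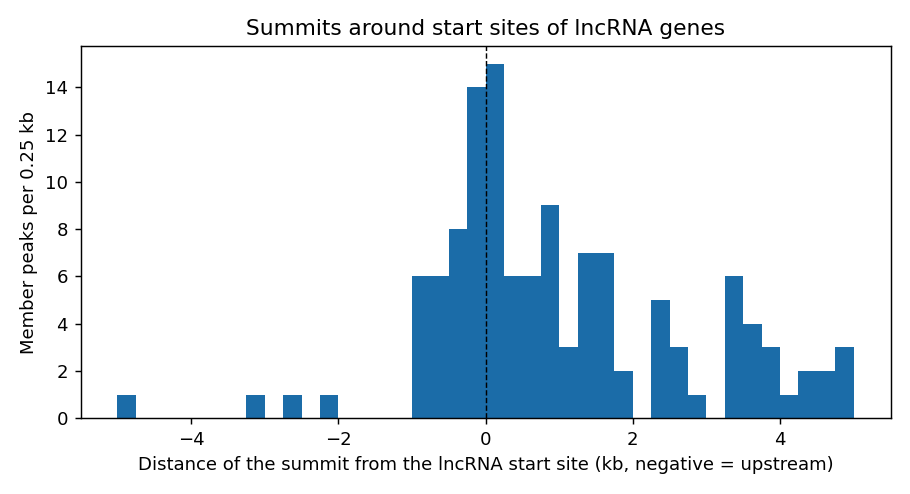
Distance of the summit from the matched lncRNA start site (kb, negative upstream), with the number of peaks on the vertical axis, for the 123 of 253 peaks within 5000 bp. Of these, 70 lie within 1000 bp.

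Sequence at lncRNA genes held more peaks per Mb than other sequence equally far from protein-coding gene ends. The sequence that the rule covers came to 229 Mb, 9.54% of the annotated autosomal length, and held 1.42 peaks per Mb (1.27 to 1.59), against 0.843 (0.804 to 0.883) elsewhere more than 1000 bp from protein-coding ends, a ratio of 1.69. Outside protein-coding genes the values were 1.33 (1.17 to 1.51) and 0.648 (0.603 to 0.695), and inside them 1.78 and 1.11. By distance from the nearest protein-coding end they were 1.63 and 1.12 at 1 to 10 kb, 1.67 and 1.03 at 10 to 50 kb, 1.53 and 1.02 at 50 to 100 kb, and 1.07 (0.863 to 1.32) and 0.479 (0.431 to 0.530) beyond 100 kb. The lncRNA value was the higher at each distance. The excess was not even along the genes. In genes with a matched start, density was 3.94 within 1000 bp of a start and 1.85 within 1000 bp of the far end. In the rest of their sequence it was 1.06 (0.896 to 1.24), nearer to the 0.843 elsewhere. Length was counted as annotated, without gaps or mappability. Without the genes of predicted name the ratio was 1.43, with those genes and their peaks counted in the other sequence. It therefore does not share its comparison sequence with the 1.69.

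**Figure D5:**
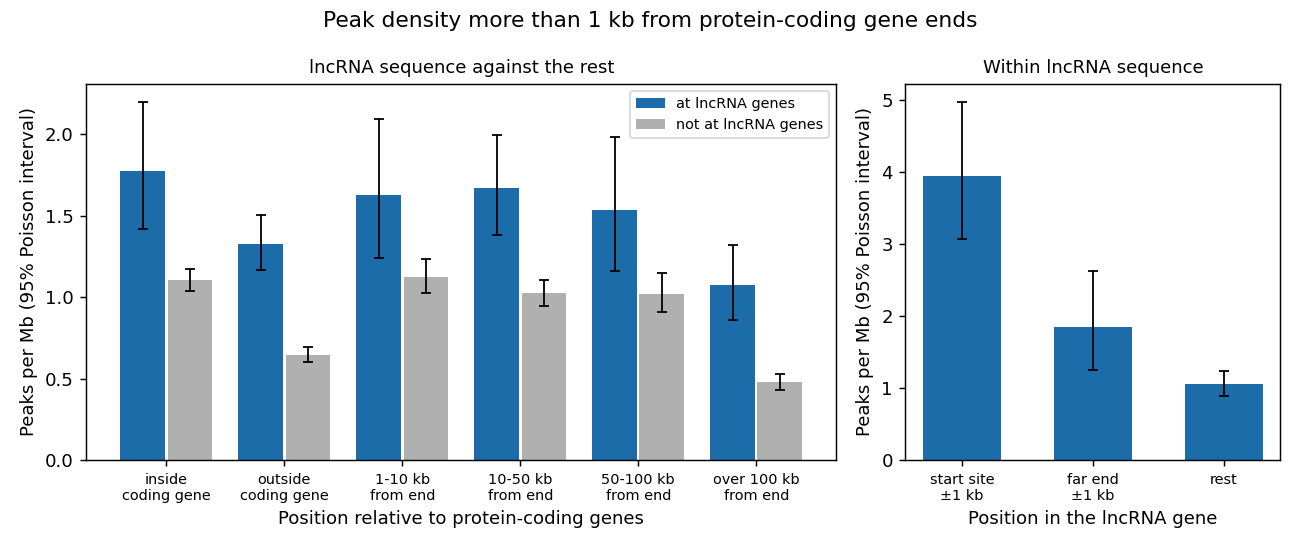
Peaks per Mb (vertical axis from 0) more than 1000 bp from protein-coding gene ends, with exact Poisson 95% intervals. The left panel compares lncRNA genes with other sequence, inside and outside protein-coding genes and by distance class. The right panel shows lncRNA sequence only: within 1000 bp of the start, within 1000 bp of the far end, and the rest. Beyond 100 kb the values are 1.07 and 0.479.

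Heights at lncRNA genes were those of the whole list. Median fold was 7.35 (quartiles 6.27 and 9.05) against 7.35 (6.27 and 8.82) for all autosomal peaks, and median pileup was 15 fragments in both. A fold of 10 or more was reached by 48 of the 326 (14.7%, 11.3 to 19%), and by 14.5% of autosomal peaks, so the share was that of the background. At 1.91 to 17.7 the range ended below the 27.3 of the whole list. Of the members, 84 (25.8%, 21.3 to 30.8%) lay inside a protein-coding gene, with a median fold of 7.47, and 242 outside, with 7.35. Where both strands were matched, the host gene was on the opposite strand for 53 and on the same strand for 1. Opposite orientation was also usual without regard to peaks, at 91.2% of 2761 overlapping lncRNA genes, and 94.6% (86.9 to 97.9%) of the 74 with a peak.

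A few of the highest pileups came with a high input. Gm33838 had 298 fragments over a local background of 155, a fold of 1.91 (1.70 to 2.14). AY036118 had a region of 5922 bp at chr17:39842971-39848892 with 236 fragments, a background of 39.8 and a fold of 5.81 (5.09 to 6.60). Most of that region lay outside the gene, with the summit 410 bp beyond its end. Gm36876 had 84 fragments over 19.2, and Gm30821 44 over 10.4. These 4 genes, named for their background, were 1.23% of the peaks, against 0.778% of autosomal ones at a background of 10 or more. Without all peaks at such a background the density ratio was 1.68 and the share with a fold of 10 or more 14.9%.

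The distance to the nearest end of a protein-coding gene had a median of 41.0 kb (quartiles 14.5 and 110 kb) for the peaks at lncRNA genes. Other peaks more than 1000 bp from an end had a median of 31.0 kb (9.58 and 84.7 kb). A distance over 100 kb was found for 27.6% and 21.0%. Nearest neighbours were 275 of 20558 protein-coding genes (1.34%). Of 34 immediate early genes, the first to be switched on by growth factors, 4 were a nearest neighbour (11.8%, 4.67 to 26.6%): Jun and Myc, given above, Fos, the partner of JUN in AP-1, and Btg1, an antiproliferative gene. The Fos neighbour was a peak in Gm32296 of 15 fragments and 8.09-fold (4.75 to 13.0), 55.9 kb away. That of Btg1 lay in Gm33782, with 20 fragments and 10.4-fold, at 266 kb.

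Of 44 muscle stem cell genes 2 were nearest neighbours (4.55%, 1.26 to 15.1%), Tenm4 and Msc, which encodes the helix-loop-helix repressor musculin. The Msc neighbour was in Gm9947 at chr1:14774667-14774952, with 20 fragments and a fold of 10.3 (6.48 to 15.6), 18.7 kb away. Of 41 myogenic genes, which drive or build differentiated muscle, none was, with a Wilson upper bound of 8.57%. Markers of other cell types that a sort could hold were neighbours as follows. Of 16 endothelial genes there was 1 (6.25%, 1.11 to 28.3%), Cdh5, at 475 kb from a peak of 8.60-fold. Of 16 fibro-adipogenic genes there were 2 (12.5%, 3.50 to 36.0%), Ebf2 (5.55-fold outside the gene and 10.1-fold inside it) and Prrx1 (10.6-fold, inside the gene). Of 12 leukocyte and 11 Schwann or smooth muscle genes there were none. The neighbour counts are small, and whether any of these peaks acts on the gene was not measured.

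Some of the lncRNA genes start head to head with a protein-coding gene, that is on opposite strands, facing away, with starts within 1000 bp. Of 233 lncRNA genes with a peak and a matched start, 16 (6.87%) were in such a pair, against 806 of 9291 (8.68%) of all. The rule removes summits within 1000 bp of protein-coding gene ends, so peaks close to paired starts could be left out. The lower share is therefore not a result about the peaks. Apart from Junos and 1700045H11Rik, the strongest were 5330439K02Rik with Letmd1 (12.6-fold) and 4930509E16Rik with Rfx7 (11.1-fold). Gm39227, paired with the metallothionein gene Mt2, had 21 fragments and a fold of 8.59 (5.47 to 12.9), with its summit 200 bp past the start. 4833438C02Rik, paired with Nfkb2, a subunit gene of NF-kappa-B, had 6.37-fold. These pairs were chosen after their values were seen.

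By chromosome the share of autosomal peaks that lay at lncRNA genes was highest on chromosome 12, 29 of 151 (19.2%, 13.7 to 26.2%), and lowest on chromosome 4, 10 of 167 (5.99%, 3.28 to 10.7%). On the others it ran from 7.76 to 14.0%. The chromosome 12 peaks included 5 whose nearest protein-coding gene was Rad51b, a recombination gene, with folds from 6.07 to 9.10. They also included 3 in the imprinted domain that runs from Dlk1, a Notch-related ligand gene, to Dio3, a thyroid hormone deiodinase gene: Gm34081 (9.10-fold, nearest Dlk1), Mirg and Gm34667 (8.33-fold, nearest Dio3). These chromosomes and genes were named after their values had been seen.

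The few peaks nearest to the limits of the rule had these values. The peaks farthest outside a gene lay at 973 bp (Gm46361, 6.64-fold), 979 bp (Gm52248, 8.09) and 982 bp (Gm32383, 6.55). Just beyond the limit were 1021 bp (Gm43653, 6.25-fold), 1050 bp (Gm35828, 7.81) and 1122 bp (Gm2895, 8.33). On the side of the protein-coding ends, nearest inside were Junos, at 1050 bp from Jun, and 0610040F04Rik, at 1083 bp from Bhlhe40 (6.64-fold). Gm39227 followed at 1163 bp from Mt2 (8.59-fold). The Junos peak, at 17.7-fold, was the strongest of all members. Left out were peaks at 894 bp from Gadd45a (7.35-fold), 904 bp from Tmtc2 (9.31) and 953 bp from Gm12447 (7.84).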

How the data were processed

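ChIP DNA and input DNA of sorted muscle stem cells gave single-end tags of 50 bp (the labels' protocols) and grouped by the antibody in the labels. The submitters' processing notes name GRCm38, bcl2fastq 2.16, HISAT2 2.10 and MACS2 2.1.1. Per the file headers, the caller was MACS 2.1.1.20160309 with q-values up to 0.01 and fragments of 172 bp, and the input was scaled down to the depth of the ChIP library. The deposited pileup gives the coverage signal of ChIP fragments at the summit. The authors' fold is the ratio of pileup to local background, with 1 added to each. The deposited −log10 q-value (and the −log10 p-value behind it) served only to rank peaks.

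The local background was recovered from fold and pileup. For a fold, the exact Poisson interval of the pileup was divided by the same background, shares carry Wilson 95% intervals, and densities exact Poisson intervals. Gene spans came from RefSeq GRCm38.p6, without exons; 333 autosomal entries on scaffolds or patches were left out. Start sites and promoter letters came from RefSeq promoter windows, which were not used for chromosome 18. The planned motif search in peaks became a search in promoter windows. Work was done in Python 3.11.15 with pandas 2.3.3 and scipy 1.17.1, and counting was tested on simulated data. The 17 peaks on the X chromosome and 2 on scaffolds were left out.

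The text names the 12 lncRNA genes with the highest folds, the 8 with the most peaks, genes of the fixed lists with a peak, and the 3 longest, with their nearest protein-coding genes and those of the stem cell, myogenic and immediate early lists. All other names were chosen after their values were seen. Members and lists were chosen with earlier results of these data known. Alternatives were a stricter q, no top 1% of pileups, other windows and distances, any overlap, and no predicted names. Leaving out backgrounds of 10 or more, and all alternatives for the densities, were added after the data were seen.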

Additional observations from a re-analysis of the deposited data

How the results depend on the processing

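Of 66 values under alternatives, 51 stayed within their counting interval (for counts, within 1.5 times) and 15 moved. With the peaks whose −log10 q reached its median (8.40), there were 174 peaks at 178 lncRNA genes, the median fold was 8.85, 27.6% had a fold of 10 or more, and 31.6% lay within 1000 bp of an lncRNA gene end. That alternative keeps stronger peaks by construction. With summits strictly inside the gene, the share of autosomal peaks was 9.33% and the share near an lncRNA end 23.6%. The share of autosomal peaks was 12.6% with a 2500 bp window and 9.74% beyond 5000 bp of protein-coding ends. Without predicted names there were 68 peaks (2.30%) at 57 genes, 45.6% near an lncRNA end. The density ratio of lncRNA to other sequence was then 1.43, with the predicted genes and their peaks counted in the other sequence. The ratio of starts to all remaining lncRNA sequence, far ends included, was 7.74, against 3.46 with all names. The cause was not tested. Under the other alternatives these ratios ran from 1.68 to 1.76 and from 2.98 to 3.50.

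No paired analysis was possible because each group had 1 library. The median peak rests on 15 fragments, and 73 of 326 on 12 or fewer, so folds of neighbouring peaks mostly cannot be told apart at this depth. Repeats between animals, the specificity of the antibody and the activity of the lncRNA genes were not analysed here.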

Other observations

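A few further peaks are given with the protein-coding gene that holds them or is nearest. They were chosen after their values were seen and stand for no gene group. Mbnl2, which encodes a splicing regulator, held 3 peaks inside its span, at Gm52122 (6.58-fold) and Gm26679 (7.08 and 7.59-fold). Gm40103 inside Notch2, a receptor gene of stem cell quiescence, had 8.60-fold (5.13 to 13.6), and Gm39103 inside Adam12, a metalloprotease gene, 7.59-fold. Tgfb2, a growth factor gene, was the nearest gene of peaks in A730004F24Rik (9.49-fold, 93.4 kb) and Gm35426 (8.59-fold, 140 kb). Thbs1, a matrix protein gene, was nearest to a peak in Gm32210 of 11.8-fold at 380 kb, and Inhbb, an activin subunit gene, to one in Gm33388 of 11.1-fold at 106 kb. No expression was measured in these libraries, so these neighbours are positions only.

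On the X chromosome, 1 of 17 peaks met the same rule, at Ftx, an lncRNA gene of the X inactivation centre.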
